A study of Apera spica-venti with 7 samples.

Results

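Transcripts of *Apera spica-venti*, a grass weed of winter cereals, were collected whose best homologue carries the name of a MYB, bHLH, homeobox, MADS-box, growth-regulating or TCP protein. A transcript was a member when its description held a word starting with myb, or held bhlh, homeobox, mads-box, growth-regulating factor or the whole word tcp, and when the e-value of the match was at most 0.1. The e-value tells how many matches as good as this one a search of random sequence would turn up, so that low values mark close matches. The rule found 589 of 251792 annotated transcripts in the 7 assemblies of single libraries, and 161 of 66641 in the assembly of all reads combined. MYB names accounted for 277 of the 589, bHLH names for 127, MADS-box names for 96, homeobox names for 83 and TCP names for 6. No transcript was named a growth-regulating factor, where 3 transcripts, the number that a count of 0 allows, would be a share of 0.00733 to 0.0106% of a single assembly.

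Leaf, root and stem were cut from greenhouse plants while the stem lengthened, at stages 34 to 36 of the BBCH scale of plant growth. Seeds were germinated on wet filter paper in a climate cabinet and taken at BBCH 05, when the young root emerges, at BBCH 07, when the sheathed shoot emerges, at BBCH 08, while the sheath elongates, and at BBCH 09, when it breaks the surface. All plants and seeds came from a mixture of 6 Danish populations that were susceptible to herbicides, and the RNA of at least 3 individuals was pooled. Each condition is represented here by 1 library and 1 assembly, so no value has a replicate. Seed stages and organs also differ in growing conditions, age and handling. Organs were frozen in liquid nitrogen, while seeds were kept in a stabilizing reagent and ground for longer. The authors accepted RNA below the recommended quality, because good RNA was hard to extract from germinated seeds.

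Numbers of assembled transcripts were counted, which are not expression levels, since the authors flattened read depth and joined near-identical contigs beforehand. In RNA from whole organs and whole seeds, fewer cells of a type and less RNA per cell cannot be told apart. Annotated transcripts numbered 28412 in leaf, 38809 in root and 29223 in stem, against 36287, 39930, 38229 and 40902 at BBCH 05, 07, 08 and 09. Of these, 74.5 to 76.9% in each assembly had a description with no informative name, and factors among them cannot be found by words. By the authors' counts, leaf also had the fewest reads after processing and the lowest share of complete conserved genes. Root had the most reads. Low counts in leaf cannot be told apart from this lower depth. Markers followed the labels in part. Globulins, storage proteins of the grain, had 4, 7 and 3 transcripts in leaf, root and stem, against 9 to 17 in the seed stages, and nitrate transporters had 11 in root and 2 to 4 elsewhere. Chlorophyll a-b binding proteins had 28 transcripts in leaf, but also 17 in root, 15 in stem and 14 to 22 in the seeds, and no Casparian strip protein was named in any assembly. Other lists went against their labels. Late embryogenesis abundant proteins of seeds had 3, 3 and 0 transcripts in leaf, root and stem, against 1 or 2 at each seed stage, and peroxidases, listed for root, had 208 in root but 226 at BBCH 09. Cellulose synthases, listed for stem, had 35, 35 and 22 in leaf, root and stem, against 26 to 36 in seeds.

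The families of these factors differ in how they hold DNA. MYB proteins bind it through helical repeats, bHLH proteins as pairs joined by a helix-loop-helix, homeobox proteins through a homeodomain, often followed by a leucine zipper, and MADS-box proteins as dimers that combine into larger complexes. In grasses they are known for work in cell division and lignin synthesis (MYB), root hairs and light responses (bHLH), meristems, epidermis and leaf polarity (homeobox), and flowers, flowering time and nitrate-dependent root growth (MADS-box). TCP proteins are plant factors of growth and branching.

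MYB transcripts took a larger part of the organ assemblies than of the seed assemblies, by a margin that did not pass the test. There were 35 in leaf, 48 in root and 35 in stem, against 35, 36, 44 and 44 in seeds at BBCH 05, 07, 08 and 09. As a share of annotated transcripts this was 0.123% in leaf, 0.124% in root and 0.120% in stem, against 0.0965, 0.0902, 0.115 and 0.108% at the 4 seed stages. The lowest organ was above the highest seed stage. The mean was 0.122 ± 0.00213% in organs and 0.102 ± 0.0112% in seed stages (SD over 3 organs and 4 stages), and in an exact permutation test over all 35 splits of the assemblies p was 0.0571, or 0.286 adjusted by Benjamini-Hochberg over the 5 families that had members. The smallest p this design allows is 0.0286. Counted as distinct proteins, or among peptides of at least 200 amino acids, MYB shares of organs and seeds overlapped.

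In the other families the shares of organs and seeds overlapped over the 7 assemblies. bHLH transcripts numbered 14, 19 and 15 in leaf, root and stem, against 16, 19, 26 and 18 over the seed stages, with a mean share of 0.0499 ± 0.00129% in organs and 0.0509 ± 0.0115% in seeds (exact permutation p = 1, adjusted 1). MADS-box transcripts numbered 10, 19 and 13 in leaf, root and stem, against 14, 14, 15 and 11, and averaged 0.0429 ± 0.00702% in organs and 0.0349 ± 0.00567% in seeds (exact permutation p = 0.229, adjusted 0.393). Homeobox transcripts numbered 4 in leaf, 16 in root and 8 in stem, against 13, 14, 14 and 14 in seeds (exact permutation p = 0.314, adjusted 0.393). The seed stages lay between 0.0342 and 0.0366% for this family, while leaf stood at 0.0141%, with a 95% Wilson interval of 0.00548 to 0.0362% that covers counting error only, and root at 0.0412%. The interval of leaf thus covered the values of BBCH 05, 07 and 09, but not those of BBCH 08 and root. All families together came to 63, 103 and 71 transcripts in leaf, root and stem and to 80, 84, 101 and 87 in seeds, or 0.243 ± 0.0218% in organs and 0.227 ± 0.0252% in seeds (exact permutation p = 0.314).

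**Figure D1:**
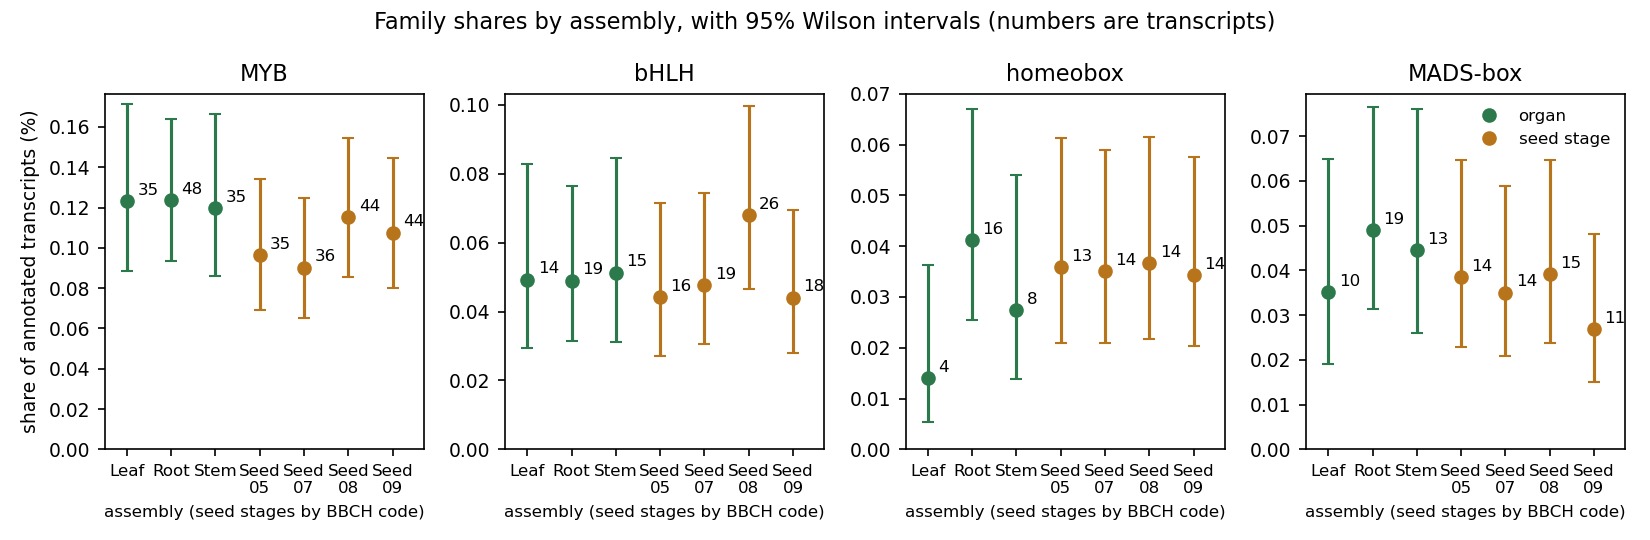
Share of annotated transcripts (%, vertical axis) in the MYB, bHLH, homeobox and MADS-box families for leaf, root and stem (green) and the seed stages at BBCH 05 to 09 (brown), each point being 1 assembly with its 95% Wilson interval and its number of transcripts. The MYB shares of the organs, 0.120 to 0.124%, lie above those of the seeds, 0.0902 to 0.115%, with overlapping intervals, and leaf has 4 homeobox transcripts.

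The plot of family shares shows intervals that overlap among all 7 assemblies in every family. Within the seeds, BBCH 08 held more bHLH transcripts than the other stages, 0.068% of its annotated transcripts, against 0.044 to 0.0476% at BBCH 05, 07 and 09. Of the leading bHLH names, bHLH35, bHLH49 and bHLH87 had 3 transcripts each there and bHLH82 had 2. Others did not rise there: bHLH140 had 2, as at BBCH 07, and bHLH128 and bHLH83 had 1, as at every seed stage. bHLH93 and bHLH89 had none at BBCH 08.

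The name APL had the most transcripts of the leading names, 61 over the 7 assemblies, but it covered several proteins and not 1 gene. In Arabidopsis APL is a MYB protein that sets the identity of phloem, the tissue that carries sugars. Whether the proteins matched here share that role was not tested. The name had 12 transcripts in leaf, 10 in root and 7 in stem, against 6, 9, 9 and 8 at the 4 seed stages. The organ shares, 0.024 to 0.0422%, did not overlap the seed shares, 0.0165 to 0.0235%, and APL was the 1 description of 13 member descriptions with at least 10 transcripts that stood higher in organs in this way. Over all 1505 descriptions with as many transcripts, 5.58% did. The lowest organ, stem, and the highest seed stage, BBCH 08, were separated by less than 1 transcript's worth of share. The 61 transcripts matched 9 proteins of *Aegilops tauschii* and *Triticum urartu*, wild relatives of wheat.

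APL also gave the longest peptide of all members in each assembly. These peptides were 1335, 1771 and 1776 amino acids long in leaf, root and stem, and 1665, 1539, 1447 and 1758 at BBCH 05, 07, 08 and 09. All 7 matched 1 *Aegilops tauschii* protein, with a similarity of 82 to 86%. The longest member peptide of any other name was 665 to 949 amino acids. Another APL peptide of 290 amino acids came back with the same protein, length, similarity and e-value in 5 assemblies.

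MYB13-3 and transcripts described only as MYB family transcription factor had lower shares in each organ than at any seed stage. MYB13-3, a name given in wheat, had 2, 2 and 1 transcripts in leaf, root and stem, against 4, 3, 4 and 3 in seeds, and all 19 matched 1 wheat protein. The unspecific description had 0, 1 and 1 in the organs and 2, 2, 4 and 2 in the seeds. These were 2 of the 13 descriptions, where 7.31% of the 1505 descriptions stood lower in organs with no overlap. The highest organ share of MYB13-3, 0.00704% in leaf, was close to the lowest seed share, 0.00733% at BBCH 09. With 0 to 4 transcripts of each in an assembly, no test was made of either.

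The other leading MYB names were found in all 7 assemblies. MYB J had 6, 4 and 5 transcripts in leaf, root and stem, against 3, 4, 4 and 2 in seeds, and the ranges met at 4. R1R2R3-MYB and MYB-related 3R-1 carry the 3 repeats of the MYB proteins that switch on genes of late cell division in plants. R1R2R3-MYB had 3, 4 and 2 transcripts in organs, against 2, 3, 3 and 2 in seeds, and 3R-1 had 1, 2 and 2, against 2, 2, 1 and 3. Together these 3-repeat names gave 4 to 6 transcripts in every assembly. MYB4, a repressor of phenylpropanoid genes in Arabidopsis, had 1, 2 and 2 transcripts in organs, against 3, 1, 2 and 2 in seeds. Its longest peptide was 209 amino acids.

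Some MYB names outside these leading ones were picked after their values were seen. MYB39, which drives suberin synthesis in Arabidopsis, had 3 transcripts in root, 1 in stem and none in leaf, against 0, 0, 1 and 2 over the seed stages. MYB86 had 1, 3 and 1 in leaf, root and stem, against 0, 1, 1 and 2. DUO1, a regulator of male germ cells in Arabidopsis, was named in leaf, root, stem and BBCH 09, each time by a peptide of 115 amino acids with 43% similarity and an e-value of 0.065. These were among the weakest matches of all members. No description named GAMYB, the gibberellin-induced MYB protein of cereal grains, or a MYBS protein. Transcripts of alpha-amylase, the enzyme whose genes GAMYB activates in the barley aleurone, numbered 5, 9 and 3 in leaf, root and stem, against 14, 13, 16 and 10 in seeds.

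Members with at least 3 transcripts in organs only or in seeds only were sought by rule, so their split is a description. Of 64 member descriptions with as many transcripts, 1 was in organs only and 6 in seeds only, where 2.05% and 7.75% of all 4439 such descriptions were, so that the number found is no result about the members. Of the 6, bHLH83, bHLH35 and MADS25 name a single member. bHLH83, the Arabidopsis root hair regulator RHD6, had 1 transcript at each of the 4 seed stages and none in leaf, root or stem. Its peptides were 197, 191, 167 and 217 amino acids long at BBCH 05, 07, 08 and 09, all matched 1 *Triticum urartu* protein and the similarity was 88 to 91%. bHLH35 had no transcript in organs or at BBCH 05, and 1, 3 and 2 at BBCH 07, 08 and 09. bHLH89, named after a factor of the anther wall in Arabidopsis, had 2 transcripts in root and 3 in stem and none in leaf or seeds. With counts of 0 to 3 per assembly, a count of 0 allows up to 3 transcripts, so absence from a class was not shown.

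The remaining bHLH names were spread over both classes. bHLH49, an activator of cell elongation in Arabidopsis, had 2, 1 and 2 transcripts in leaf, root and stem, against 2, 2, 3 and 2 in seeds. bHLH82, which acts in root hairs of Arabidopsis, had 2, 1 and 1, against 1, 1, 2 and 1. bHLH87 had 1, 0 and 1, against 2, 1, 3 and 1. bHLH93 had 1, 3 and 2, against 0, 2, 0 and 1, and bHLH128 had 0, 1 and 1, against 1 at every seed stage. bHLH49 and bHLH82 were in all 7 assemblies and the other 3 were missing from 1 or 2 of them. bHLH140 is listed among bHLH factors by name, although its Arabidopsis namesake resembles aprataxin, an enzyme of DNA repair. It had 1, 1 and 0 transcripts in leaf, root and stem, against 1, 2, 2 and 1 in seeds, and all 8 carried the GO term DNA repair and none the term protein dimerization activity.

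Among homeobox members, 69 of 83 transcripts were named homeobox-leucine zipper. They numbered 3, 13 and 7 in leaf, root and stem, against 10, 13, 12 and 11 in seeds. HOX12, HOX13, HOX14 and HOX6 belong to class I of these proteins in rice, a class known for responses to drought. They had 0, 4 and 4 transcripts in leaf, root and stem, against 5, 4, 6 and 4 in seeds. HOX12 led them with 0, 1 and 3 in organs, against 3, 2, 4 and 2 in seeds, and HOX13 had 0, 2 and 1, against 0, 1, 1 and 1. HOX3, of class II in rice, had 2 transcripts in root and none in leaf or stem, against 1, 2, 1 and 1 in seeds. Leaf was thus the 1 assembly without a transcript of HOX12, while HOX13 was also missing at BBCH 05 and HOX3 from stem.

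ROC transcripts were found at every seed stage and HOX10 transcripts at the later seed stages. HOX10, a class III protein of rice that shapes leaf polarity and vascular tissue, had 1, 3 and 1 transcripts in leaf, root and stem, against 0, 0, 1 and 3 at BBCH 05, 07, 08 and 09. Over the seeds it was thus first found at BBCH 08. ROC proteins are class IV proteins of rice, active in the outermost cell layer. ROC5 had 1, 2 and 0 transcripts in organs, against 2 at every seed stage. In root and at each seed stage 1 of these was a peptide of 408 to 825 amino acids and the other of 156 to 165 amino acids, and all 11 matched 1 *Aegilops tauschii* protein. ROC3 had 0, 1 and 1, against 1 at each seed stage, and the whole ROC group had 1, 4 and 2, against 4, 7, 4 and 3.

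KNOX homeobox proteins, some of which keep shoot meristems undifferentiated, were rare. They gave no transcript in leaf, 2 in root and 1 in stem, against 0, 0, 0 and 1 in seeds, and 4 in the combined assembly. ATH1, of the BEL1-like proteins that partner KNOX, was a member with 1 transcript each at BBCH 08 and 09 and none in organs. Transcripts described as BEL1-like homeodomain do not carry the word homeobox and so were not members. They had 2, 4 and 4 transcripts in leaf, root and stem, against 5, 11, 13 and 9 in seeds. With them added, the homeobox share of organs minus seeds was -0.0194 percentage points, against -0.00787 without them (exact permutation p = 0.0857, adjusted 0.214). WUSCHEL, which maintains stem cells, was named once, in the combined assembly, by a peptide of 185 amino acids with an e-value of 0.077 and 48% similarity.

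MADS-box members showed both the steadiest names and a long tail of single finds. MADS8 had 1 transcript in each of the 7 assemblies, each translated into 228 amino acids. All matched the same *Brachypodium distachyon* protein with 80% similarity. Its namesake in rice is SEPALLATA-like, but whether the *Brachypodium* numbers follow those of rice was not checked. MADS6, whose namesake in rice is AGL6-like, and MADS23 also had 1 transcript in every assembly. The peptides of MADS6 were 100 to 172 amino acids long with 94 to 95% similarity, and those of MADS23 were 222 to 315 amino acids long with 77 to 82% similarity. Of all member peptides, 13 came back with the same protein, length, similarity and e-value in 3 or more assemblies, and MADS8 was the 1 that did so in 7.

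Leaf, the assembly with the fewest annotated transcripts, also had the fewest transcripts of MADS27 and its relatives. In rice, the proteins named MADS23, MADS25 and MADS27 belong to the clade of AGL17 and ANR1, known for root growth under nitrate. Some MADS27 transcripts, among them the 1 in stem, matched *Brachypodium distachyon* proteins, whose numbering was not checked against that of rice. MADS27 had 0, 4 and 1 transcripts in leaf, root and stem, against 2, 3, 2 and 2 in seeds. MADS25 had none in organs and 1 each at BBCH 05, 07 and 08. Together the 3 names gave 1, 5 and 2 transcripts in leaf, root and stem, against 4, 5, 4 and 3 in seeds. ZMM17, a B-sister protein of maize ovules, had 3 in root and none in leaf or stem, against 3, 1, 0 and 1 in seeds. AGL61, a factor of the central cell in Arabidopsis, had 0, 1 and 1 transcripts in organs, against 1 at each seed stage, with a similarity of 57 to 58%.

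Names of flowering-time and flower factors were picked here after their values were seen. The relationships given are those of rice namesakes, also where the match was a *Brachypodium distachyon* protein. MADS14 and MADS18, relatives of APETALA1 and FRUITFULL, had 1 transcript in stem and 1 in leaf, and MADS22 and MADS47, relatives of SVP, likewise had 1 in stem and 1 in leaf. None of these 4 was found in root or seeds. Among names not picked, MADS5 and MADS11 each had 1 transcript, in root, and MADS19 had 1 each in leaf and stem. MADS56, a relative of SOC1, had 1 transcript in each organ, against 0, 0, 1 and 0 in seeds. The AGAMOUS-like MADS3 and MADS58 together had 1 in stem and none in leaf or root, against 1, 0, 2 and 0 in seeds. MADS24 had 1, 1 and 0 transcripts in leaf, root and stem, against 1 at each seed stage. Of the 24 MADS-box descriptions in single assemblies, 8 rested on 1 transcript.

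**Figure D2:**
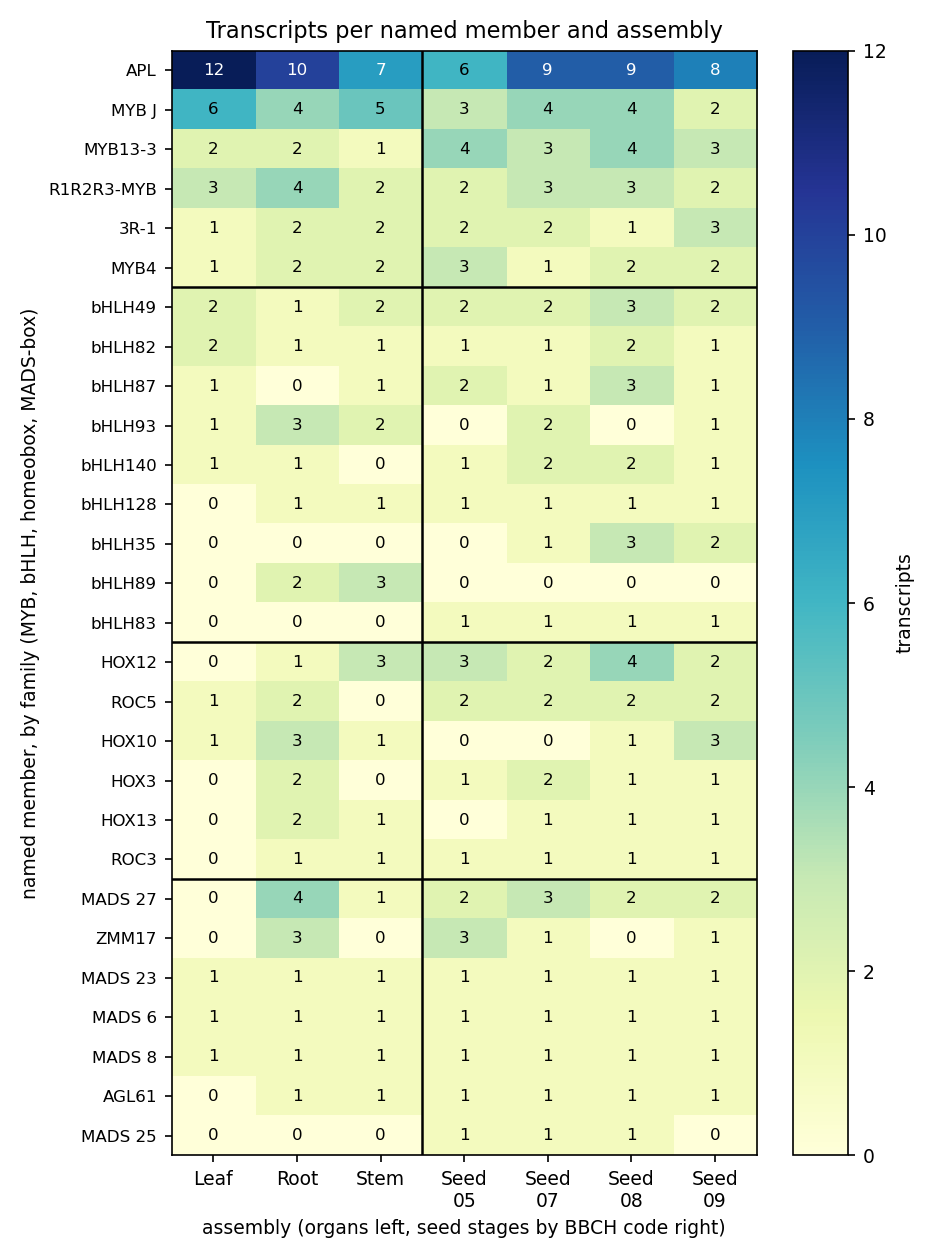
Number of transcripts of each leading member (rows, grouped as MYB, bHLH, homeobox and MADS-box) in leaf, root and stem (left of the line) and in seeds at BBCH 05, 07, 08 and 09 (right of it), with darker cells for more transcripts. APL has 6 to 12 per assembly, while bHLH83 has 1 at each seed stage and 0 in the organs.

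The grid of named members has 28 entries, most of them with 0 to 3 transcripts in an assembly. TCP names gave 0, 1 and 0 transcripts in leaf, root and stem, against 2, 1, 2 and 0 in seeds (exact permutation p = 0.257 for the shares, adjusted 0.393). Of these 6, 2 were TCP-1 chaperonins, which fold proteins and only share the letters, and the other 4 were short peptides of 108 to 119 amino acids. Among partners of the families, DELLA proteins, which bind and restrain bHLH factors, had 1, 2 and 1 transcripts in leaf, root and stem, against 1, 1, 1 and 2 in seeds. Phytochromes, the red light receptors that act on bHLH factors, had 9, 6 and 7, against 6, 4, 4 and 5. A search for TTG1, a partner of MYB and bHLH factors, found 4, 1 and 1 transcripts under other transparent testa names, against 1, 1, 4 and 5. JAZ repressors had none in organs and 1 each at BBCH 07 and 08, and no GRF-interacting or OVATE protein was named.

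The 589 transcripts matched 158 distinct proteins, of which 69 were MYB, 35 bHLH, 29 MADS-box, 22 homeobox and 3 TCP. Of these proteins 16 were matched in all 7 assemblies, 10.1%, where 15.8% of all 57115 matched proteins were. The 16 comprised 9 MYB, 4 MADS-box and 3 bHLH proteins and no homeobox protein. Organs alone matched 32 member proteins (20.3%, against 16.8% of all proteins) and seed stages alone matched 48 (30.4%, against 30.7%). Leaf alone matched 8 (5.06%, against 3.93%), root alone 13 (8.23%, against 6.8%) and stem alone 4 (2.53%, against 2.87%). The shares matched in organs alone, in seeds alone or in a single organ lie near those of all proteins and give no result about the members. The share matched in all 7 assemblies was lower among members, and this difference was not tested.

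**Figure D3:**
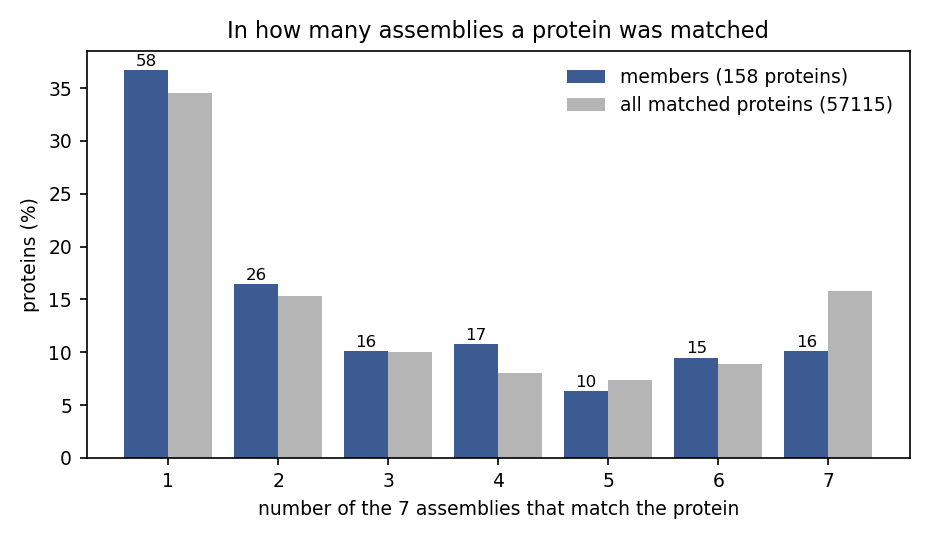
Percent of proteins (vertical axis) by the number of the 7 assemblies in which they were matched, for members (blue, with the number of proteins) and all matched proteins (grey). In 1 assembly only are 58 member proteins, 36.7%, beside 34.6% of all, and in all 7 are 10.1% beside 15.8%.

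As the bars by number of assemblies show, a protein in 1 assembly only was the commonest case. Over the 21 pairs of assemblies, the shared member proteins made up 36.6 to 76.6% of those in either assembly of the pair, where 49.8 to 75.6% of all proteins were shared, and the share of members was the lower one in 36 of 42 cases. Leaf and root shared 34, 68.0% of the 50 in leaf and 41.0% of the 83 in root, beside 69.2 and 51.7% of all proteins. The combined assembly matched 120 member proteins, of which 19 were in no single assembly, 8 of them MADS-box, 7 MYB, 3 homeobox and 1 TCP. Among its own names were MADS1, MADS15, MADS31, MADS51 and PHERES2. The match to PHERES2 was weak, a peptide of 111 amino acids with 44% similarity and an e-value of 0.029.

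Member peptides were shorter than those of the other annotated transcripts in 7 of 7 assemblies. Their median length was 191, 177 and 194 amino acids in leaf, root and stem, and 184.5, 167, 160 and 170 at BBCH 05, 07, 08 and 09. The other transcripts had medians of 194, 201 and 232 in leaf, root and stem and of 200, 175, 184 and 188 in the seeds. Members minus others averaged -18.6 ± 11.5 amino acids (SD over 7 assemblies, exact sign-flip permutation p = 0.0156, the smallest this test can give here). Against other transcripts with an informative name the difference was -11.1 ± 12.7 and lower in 6 of 7 (exact sign-flip permutation p = 0.0312). The assemblies share genes and are not independent. Homeobox peptides had the lowest median of the 4 large families, 151 amino acids, and bHLH peptides the highest, 195.

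**Figure D4:**
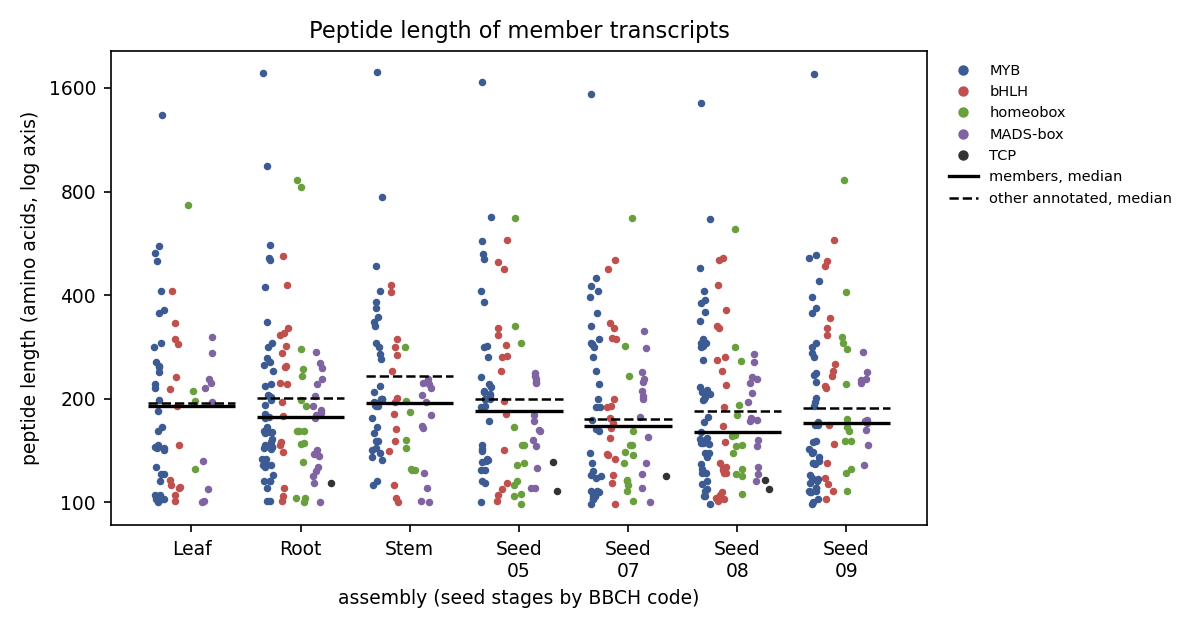
Peptide length in amino acids (log axis) of every member transcript by assembly, coloured by family, with the median of members (solid line) and of other annotated transcripts (dashed line). The solid line is below the dashed line in each assembly, and the highest point in each is the APL peptide of 1335 to 1776 amino acids.

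The lengths of single members in that plot ran from 99 amino acids upwards, and 244 of 589 reached 200. Members were also less similar to their best homologue. The median similarity was 82, 81 and 83% in leaf, root and stem and 79.5, 84, 82 and 82% at the 4 seed stages, where other transcripts had 87, 85 and 86% in the organs and 85, 86, 86 and 85% in the seeds. Members minus others averaged -3.79 ± 1.22 percentage points, lower in 7 of 7 assemblies (exact sign-flip permutation p = 0.0156). An e-value above 1e-10 was found for 16 members, 2.72%, where 5.20% of other transcripts had one. Among other transcripts with an informative name it was 3.68%.

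The best homologues came mainly from wild wheats. *Aegilops tauschii* gave 245 of the 589 (41.6%, against 14.4% of other transcripts) and *Triticum urartu* 163 (27.7%, against 12.1%). Members were found by name, while most other transcripts had no informative name. No comparison with named transcripts alone was made, so these shares give no measure of relatedness. Of the 96 MADS-box members, 39 matched *Brachypodium distachyon*, and no transcript of another member family did.

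GO terms differed between the families. Terms and names come from the same annotation and are not independent. Of the 158 member proteins, 131 had 1 list of terms on all their transcripts, which intervals over transcripts do not allow for. A term of DNA binding stood on 237 of 277 MYB transcripts (85.6%), 81 of 83 homeobox (97.6%) and 68 of 96 MADS-box (70.8%). It stood on 18 of 127 bHLH transcripts (14.2%, 95% Wilson interval 9.16 to 21.3%). Of these 18, 8 were transcripts of bHLH140, whose Arabidopsis namesake resembles aprataxin. Protein dimerization activity stood on 98 bHLH transcripts (77.2%) and 61 MADS-box transcripts (63.5%) and on no MYB or homeobox transcript. Other annotated transcripts carried these terms in 5.30% and 0.754% of cases. Lipid binding was found only in the homeobox family, on 27 of 83 transcripts, namely all 11 of ROC5, 9 of HOX10 and 6 of ROC3 and the 1 of ROC2. The 3 of ROC6, the 3 of ROC7 and the 1 of ROC4 had no such term, although class III and IV proteins as a group hold a START domain, a fold that binds lipids in animals. No member carried an enzyme code, where 13.7% of other transcripts did.

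**Figure D5:**
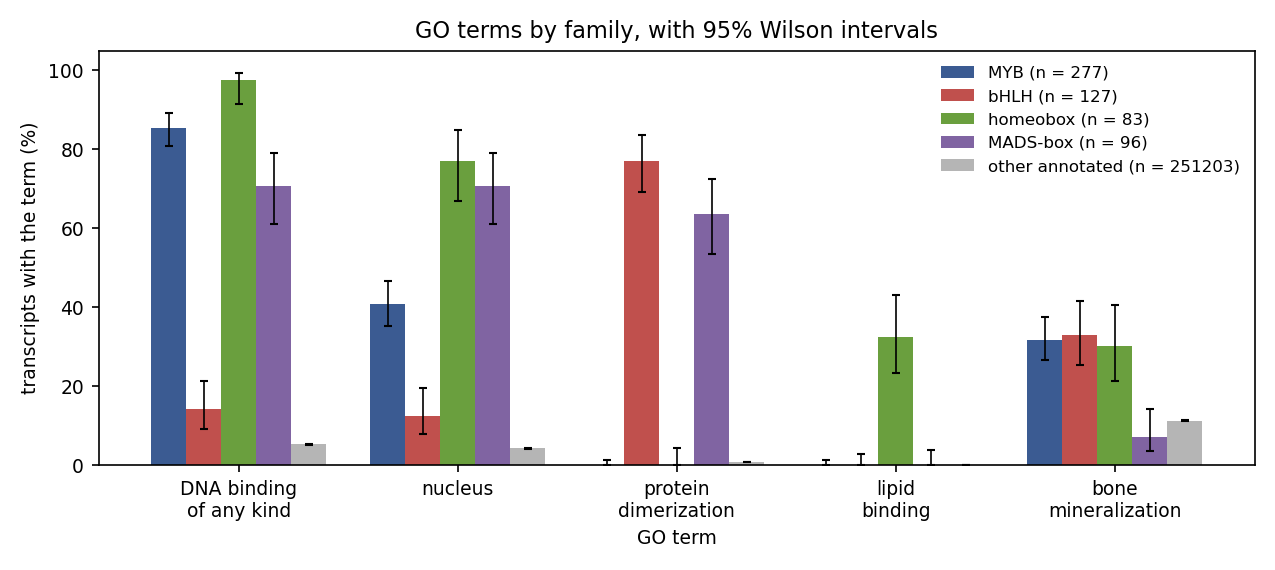
Percent of transcripts with each GO term (vertical axis) in the MYB, bHLH, homeobox and MADS-box families and in other annotated transcripts, with 95% Wilson intervals. bHLH stands at 14.2% for DNA binding and 77.2% for protein dimerization, and lipid binding is seen in the homeobox family at 32.5%.

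In the bars of GO terms, a term foreign to plants appears as well. Regulation of bone mineralization stood on 162 of 589 members (27.5%, against 11.2% of other transcripts), of which 132 had their homologue in *Aegilops tauschii*. It stood on 88 MYB, 42 bHLH, 25 homeobox and 7 MADS-box transcripts, each time with calcium ion binding. ZMM17 and AGL61 had no DNA binding term on any of their 8 and 6 transcripts. The 7 of MADS8 had no term of DNA binding, nucleus or protein dimerization activity.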

How the data were processed

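Reads of the 7 libraries analysed here, 1 per condition, were trimmed by the authors with Trimmomatic, evened out in depth by k-mers, assembled with Trinity, reduced to the longest isoform, merged by CD-HIT-EST, translated with Transdecoder and searched with blastp against plant proteins. Blast2GO gave the descriptions and GO terms. The study also made further libraries of leaf and root, which were not analysed here as samples of their own. The e-value is a score from the authors' search, used as deposited. Similarity is a percent from the authors' annotation, used as deposited, and the length is the deposited peptide length in amino acids. No sequence letters and no genome were used, and 0 columns of per-sample values had no sample. The combined assembly entered no test.

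Transcripts entered with their best homologue where its e-value was at most 0.1. Proteins were told apart by the accession of the homologue, and members named by the text after the family word. Intervals are 95% Wilson intervals. The members, lists and tests were chosen with earlier results of these data known. Named members were taken from descriptions worded for a single member, which can still cover several proteins. These were the 6 with the most transcripts in each of MYB, bHLH, homeobox and MADS-box. Up to 3 per family with at least 3 transcripts in organs only or seeds only were added. The test was adjusted over 5 families, since 1 of the 6 in the rule had no member. Separation of organ and seed shares was counted for descriptions on at least 10 transcripts. The rule of shares without overlap was tried on simulated counts. For the permutation test it was only checked there that shares higher in organs without overlap gave a low p. Its error rates were not simulated. Alternatives changed the e-value limit, unit counted, denominator, family words, green algae, peptide length, minimum of 10 and assemblies left out in turn. Transcripts with an informative description as the denominator or as the comparison, and BEL1-like proteins in the homeobox family, were added after seeing the data. Python 3.11.15, NumPy 2.4.6, pandas 2.3.3, SciPy 1.17.1 and matplotlib 3.10.9 were used.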

Additional observations from a re-analysis of the deposited data

Results flagged for a closer look

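The share of bHLH transcripts at BBCH 08, 0.068% of annotated transcripts, lay far from the other seed stages, which ran from 0.044 to 0.0476%. Its gap to the nearest of them exceeded Dixon's critical value for 4 values at the 95% level. Of 16 sets of 4 seed stages looked at this way, 1 exceeded it, where chance gives about 1 in 20, and seed stages are conditions and not replicates. The bHLH peptides at BBCH 08 had a median of 140 amino acids, against 176 to 252.5 at the other seed stages, and the 26 transcripts came from 25 Trinity genes and 20 proteins.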

How the results depend on the processing

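With a smallest p of 0.0286, no single family could pass the adjusted test, so its side of the threshold says nothing about stability. The bHLH difference, -0.00107 percentage points, turned to 0.00202 with 1 transcript per Trinity gene, to 0.00264 with the wider rule and to 0.00463 without BBCH 08. With peptides of at least 200 amino acids, MADS-box turned to -0.00163 and all families together to -0.00543, against 0.00794 and 0.0164 percentage points. The cause was not tested. With 1 assembly left out, the differences ran from 0.0158 to 0.0242 for MYB, -0.00338 to 0.00463 for bHLH, -0.0147 to -0.00113 for homeobox, 0.0049 to 0.0118 for MADS-box, -0.00356 to -0.00172 for TCP and 0.00541 to 0.0289 for all together. Outside MYB, shares of organs and seeds, which overlapped otherwise, did not overlap for homeobox without root, for MADS-box without leaf, and for bHLH and all together without BBCH 08. The homeobox difference, -0.00787, was -0.0223 with the wider rule and -0.0194 with BEL1-like proteins. The MYB shares of organs and seeds stayed apart in 9 of 11 other settings, and the difference was 0.0101 for distinct proteins and 0.00591 for peptides of at least 200 amino acids, against 0.0199. Member descriptions lower in organs numbered 0 at a minimum of 20 transcripts, against 2. Counted by description, 18 names were found in organs only, 26 in seeds only, 4 in leaf only and 6 in root only, against 32, 48, 8 and 13 proteins, because 158 proteins share 107 descriptions. Peptide length and similarity kept their direction in the settings run, but with means in place of medians members minus others was -41.1 amino acids, against -18.6, and -1.25 percentage points, lower in 6 of 7 assemblies (exact sign-flip permutation p = 0.0469), against -3.79. No paired analysis was possible because each condition has 1 library and no replicate numbers are shared. The number of transcripts limits the precision: leaf has 4 homeobox transcripts, and single members mostly have 0 to 3.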
